A study of Mus musculus with 2 samples.

Results

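The mRNAs of the E proteins and of their Id inhibitors were examined in mouse B cell precursors on both sides of the step from the pre-pro-B to the pro-B cell. The family was taken as 7 genes chosen by name: *Tcf3*, *Tcf4* and *Tcf12*, which encode the E proteins, and *Id1*, *Id2*, *Id3* and *Id4*, which encode the Id proteins. They are 7 of the 20246 protein-coding genes in the deposited RNA-seq values, and they hold 19 of the 26968 protein-coding RefSeq transcripts. The values are FPKM, which count the sequenced fragments of a transcript relative to its length in kilobases and to the size of the library, so levels may be compared between genes as well as between cells.

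Total RNA from 1 library of *Ebf1* -/- pre-pro-B cells and 1 library of *Rag2* -/- pro-B cells was depleted of ribosomal RNA and sequenced with strand information. Both are C57BL/6 cells grown in culture on OP-9 stromal cells, a bone marrow stromal line. The pre-pro-B cells received Il-7, Scf and Flt3l (5, 10 and 10 ng/mL), and the pro-B cells received Il-7 alone (5 ng/mL). The study's methods derive the *Ebf1* null cells from the liver of female embryos and the *Rag2* null cells from the bone marrow of adult males. Cell stage therefore cannot be told apart from genotype, sex, age, tissue of origin and cytokines, and with 1 library per cell type no difference below has a replicate check and no p-value was computed. Where an interval is given, it is the 95% confidence interval that Cuffdiff, the program that made the FPKM, derives from its own model.

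E proteins are basic helix-loop-helix transcription factors that bind as dimers to the E box, a short DNA motif of the form CANNTG. Id proteins have the helix-loop-helix dimerization domain without the basic region that touches DNA, so a dimer of an E protein with an Id protein does not bind. In lymphoid progenitors the E proteins are known as activators of the B and T cell programmes, and *Id2* is known for its role in natural killer cells, innate lymphoid cells and some dendritic cells. *Ebf1*, the gene deleted in the pre-pro-B cells, is itself a known target of the E proteins.

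Sequences are shown for the promoters of both Id genes that differed most between the cells, and of *Tcf3*, since E proteins act through E boxes. Each run below is the 250 bases before the annotated start, read 5′ to 3′ on the strand of the gene from RefSeq promoters of build GRCm38.p6, with any CANNTG in capitals.

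*Id2* (minus strand, chr12:25096093-25096342): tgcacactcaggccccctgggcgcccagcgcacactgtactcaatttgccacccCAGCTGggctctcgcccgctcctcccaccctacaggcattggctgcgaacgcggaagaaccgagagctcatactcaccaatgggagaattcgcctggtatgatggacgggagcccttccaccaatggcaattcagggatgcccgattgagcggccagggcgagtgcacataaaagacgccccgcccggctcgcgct

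*Id3* (plus strand, chr4:136143572-136143821): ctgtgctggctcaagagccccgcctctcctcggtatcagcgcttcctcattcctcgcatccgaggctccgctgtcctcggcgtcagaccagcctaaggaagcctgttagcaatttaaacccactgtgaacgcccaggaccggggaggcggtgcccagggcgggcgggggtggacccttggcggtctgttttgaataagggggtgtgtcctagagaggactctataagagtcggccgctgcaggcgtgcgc

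*Tcf3* (minus strand, chr10:80433636-80433885): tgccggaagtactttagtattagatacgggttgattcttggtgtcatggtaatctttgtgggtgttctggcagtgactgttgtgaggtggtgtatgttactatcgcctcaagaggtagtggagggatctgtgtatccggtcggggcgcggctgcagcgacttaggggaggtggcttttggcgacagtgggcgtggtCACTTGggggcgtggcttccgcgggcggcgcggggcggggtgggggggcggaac

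The *Id2* window held 1 E box, a CAGCTG whose first base lay 196 bases before the start, and the *Tcf3* window held 1, a CACTTG 54 bases before the start. No CANNTG was found in the *Id3* window. A CANNTG on 1 strand is a CANNTG on the other as well. For comparison, 66.2% of 32851 RefSeq promoter windows of this length held at least 1, while 13% held CAGCTG. A window of *Tcf12*, a gene that differed little between the cells, held a CAGCTG as well, 240 bases before the start. The other *Tcf12* windows held no CAGCTG. A match of letters is a description of the window and was not tested as a binding site.

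*Tcf3* is also shown for its coding exons that are used in place of each other, because its transcripts share nearly all of their length and the deposited values divide the reads among them. The exons lie on the minus strand of chromosome 10 in mm9, the build of the deposited values, and both encode part of the DNA-binding and dimerization region. Capitals mark the bases at which the exons differ or that only the longer one has.

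Upstream exon, 236 bases (chr10:79875572-79875807): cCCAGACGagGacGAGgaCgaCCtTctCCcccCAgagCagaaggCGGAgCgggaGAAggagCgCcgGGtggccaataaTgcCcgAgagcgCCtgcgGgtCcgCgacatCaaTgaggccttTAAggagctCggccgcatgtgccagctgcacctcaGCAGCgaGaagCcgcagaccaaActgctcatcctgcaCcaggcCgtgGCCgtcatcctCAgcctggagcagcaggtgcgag

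Downstream exon, 227 bases (chr10:79873143-79873369): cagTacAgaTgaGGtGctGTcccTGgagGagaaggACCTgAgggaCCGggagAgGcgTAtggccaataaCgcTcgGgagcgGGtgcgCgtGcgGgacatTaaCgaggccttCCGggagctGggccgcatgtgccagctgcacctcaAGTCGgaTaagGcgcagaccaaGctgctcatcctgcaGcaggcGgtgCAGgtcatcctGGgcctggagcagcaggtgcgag

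Over the 227 aligned pairs of bases the exons were 77.1% identical, with a length difference of 9 bases and a longest identical run of 25 bases, against reads of 97 bases. Counted with its length variants, the upstream exon is present in 4 and the downstream exon in 7 of 11 coding *Tcf3* transcripts of the GENCODE annotation on mm9. Transcripts annotated with few coding exons were left out of this count.

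The E protein genes were expressed in both cells, and 2 of the 3 were higher in pro-B cells. *Id2* had the highest FPKM of the family in pre-pro-B cells and was 22.9-fold lower in pro-B cells. *Id3* was higher in pro-B cells, *Id1* was low in both, and *Id4* was listed at 0 in both. Counted on log2((pro-B FPKM + 1)/(pre-pro-B FPKM + 1)) with a limit of 2-fold, 3 of the 7 genes were higher in pro-B cells (*Tcf3*, *Tcf4* and *Id3*), 1 was lower (*Id2*) and 3 lay within 2-fold. Over all 20246 genes the same limit was passed by 1284 higher genes (6.34%) and 2013 lower genes (9.94%). Among the 10525 genes that reached 1 FPKM in either library, as 5 of the 7 members had, the shares were 12.2% and 19.1%.

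**Figure D1:**
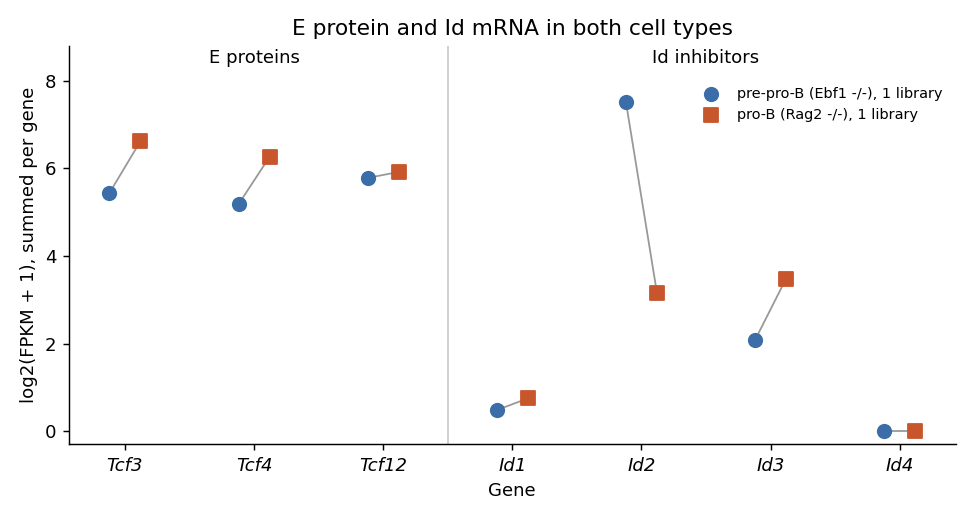
Level of each member gene as log2(FPKM + 1), summed over its protein-coding transcripts, in the pre-pro-B library (circles) and the pro-B library (squares), 1 library each and so without error bars. *Id2* drops from the highest to the fifth place, while *Tcf3*, *Tcf4* and *Id3* sit higher in the pro-B library.

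*Tcf3* (chromosome 10 of mm9, 79871910 to 79896398), the E protein gene that B cell development is best known to require, summed to 42.4 FPKM in the pre-pro-B and 97.5 in the pro-B library. The pro-B value was 2.30-fold higher, a log2 change of 1.18. Here and below a printed fold is the plain ratio of FPKM, while a log2 change, and with it each count of genes past or within 2-fold, has the pseudocount of 1. Counted from the highest gene, *Tcf3* stood at rank 1772 in the pre-pro-B and rank 628 in the pro-B library.

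*Tcf4* (chromosome 18, 69504146 to 69847621), known for its role in plasmacytoid dendritic cells, summed to 35.3 FPKM in the pre-pro-B and 75.8 in the pro-B library. The difference was 2.15-fold, a log2 change of 1.08, which is close to the limit of 2-fold and came to 1.00 when both libraries were rescaled to the same total. Its rank moved from 2216 to 869.

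*Tcf12* (chromosome 9, 71692059 to 71959626), which encodes the E protein HEB, summed to 54.1 FPKM in the pre-pro-B and 59.6 in the pro-B library, a log2 change of 0.14. It was the most abundant E protein mRNA of the pre-pro-B library and the least abundant of the pro-B library. Its share of the summed E protein FPKM was 41.1% in the pre-pro-B and 25.6% in the pro-B library, while the share of *Tcf3* was 32.1% and 41.9% and that of *Tcf4* was 26.8% and 32.6%.

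*Id2* (chromosome 12, 25778664 to 25780957) stood at 182 FPKM in the pre-pro-B library (interval 21.5 to 345) against 7.95 in the pro-B library (interval 0.0311 to 19.4). The intervals did not overlap. The pro-B value was 22.9-fold lower, a log2 change of -4.35, and 132 of the 20246 genes, *Id2* included, were lower by at least as much. *Id2* ranked 200 in the pre-pro-B and 6284 in the pro-B library. If all of the about 90000000 reads that the labels state had aligned, these FPKM would stand for about 20847 and 910 fragments. Counting error alone is small at such counts, but the model interval of the pro-B value still reached down to 0.0311.

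*Id3* (chromosome 4, 135699737 to 135701307), known as an Id gene that antigen receptor signals induce in lymphocytes, stood at 3.24 FPKM in the pre-pro-B library (interval 0 to 7.55) against 10.2 in the pro-B library (interval 0 to 21.6). Its log2 change was 1.40, in the opposite direction to *Id2*, and its pre-pro-B interval lay wholly within the pro-B one. About 278 and 873 fragments stand behind these values.

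*Id1* (chromosome 2, 152562010 to 152563146) stood at 0.394 FPKM in the pre-pro-B library (interval 0 to 1.34) against 0.679 in the pro-B library (interval 0 to 2.39), or about 32.3 and 55.7 fragments. *Id4* (chromosome 13, 48356796 to 48359405), best known in the nervous system, was listed at 0 in both libraries. For its transcript, 3 fragments would give an FPKM of 0.0201, so a level below this was not detectable at this depth.

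In pre-pro-B cells the order of the levels was *Id2*, *Tcf12*, *Tcf3*, *Tcf4*, *Id3*, *Id1* and *Id4*. In pro-B cells it was *Tcf3*, *Tcf4*, *Tcf12*, *Id3*, *Id2*, *Id1* and *Id4*. In both libraries the intervals of the most abundant transcripts overlapped for every pair of neighbours in the order, so by this measure no neighbours in the order were separated.

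**Figure D2:**
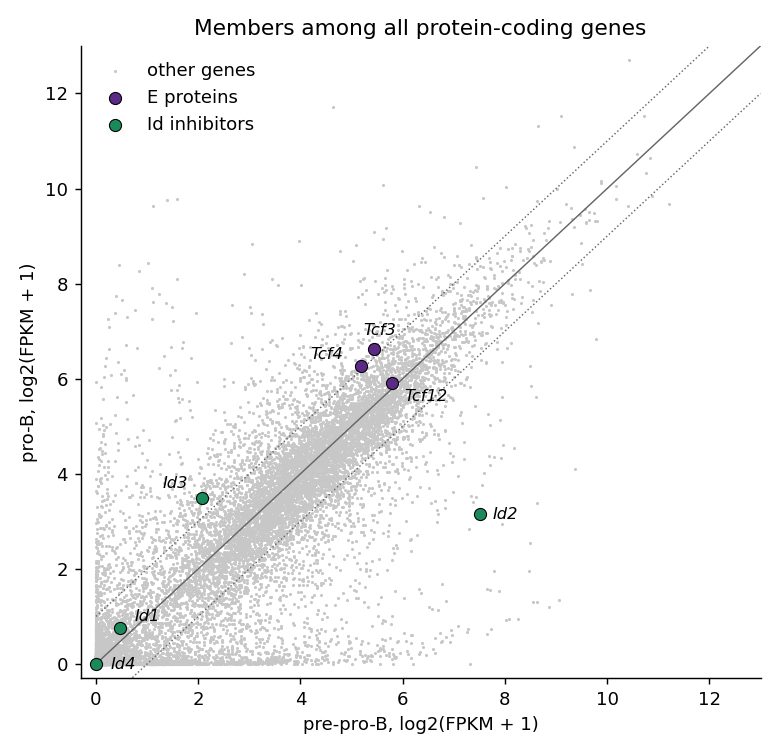
Each grey point is a protein-coding gene, at its log2(FPKM + 1) in the pre-pro-B library (horizontal axis) and the pro-B library (vertical axis); the solid line marks equal values and the dotted lines a 2-fold difference. *Id2* lies far below the lower dotted line, *Tcf3*, *Tcf4* and *Id3* lie just above the upper one, and *Tcf12* and *Id1* lie near equality.

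The summed FPKM of the E protein genes was 132 in the pre-pro-B and 233 in the pro-B library, which is 1.77-fold higher. The summed FPKM of the Id genes was 186 in the pre-pro-B and 18.8 in the pro-B library, which is 9.88-fold lower. *Id2* made up 98.0% of the Id sum in the pre-pro-B and 42.3% in the pro-B library, where *Id3* was the larger part with 54.1%. Without *Id2* the Id sum was 3.63 in the pre-pro-B and 10.9 in the pro-B library.

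The ratio of the Id sum to the E protein sum is taken within a library and so does not depend on the scaling between the libraries. It was 1.41 in the pre-pro-B and 0.0808 in the pro-B library, 17.5-fold apart. With the most abundant transcript of each gene in place of the sum over transcripts, the ratio was 2.76 and 0.149. With *Id2* left out it was 0.0276 and 0.0466, so the direction of the ratio rests on *Id2*. These are ratios of mRNA, and the amounts of protein were not analysed here.

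**Figure D3:**
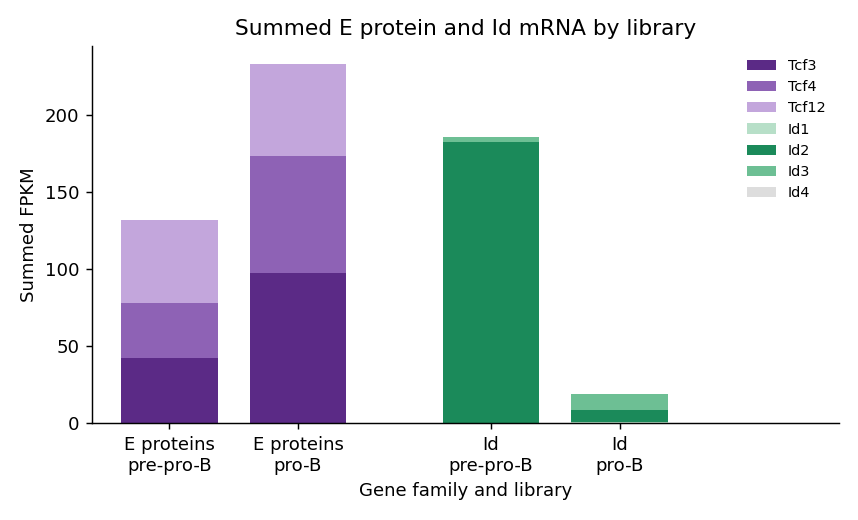
Summed FPKM of the E protein genes (left pair of bars) and of the Id genes (right pair) in each library, stacked by gene. The E protein bars reach 132 (pre-pro-B) and 233 (pro-B), and the Id bars reach 186, nearly all *Id2*, and 18.8.

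Of the 19 member transcripts, 16 had an FPKM above 0 in a library. By any amount, 13 of these were higher and 3 lower in pro-B cells. Of the 13, 7 are *Tcf3* transcripts, which share nearly all of their length and so do not count separately. The same count was not made over all transcripts. Only the *Id2* transcript had intervals that did not overlap, against 570 of all 26968 protein-coding transcripts (2.11%). Both counts include transcripts at 0 in both libraries, whose intervals overlap by construction. Of the 26968 transcripts, 17464 were above 0 in the pre-pro-B and 16486 in the pro-B library. For 12 of the 19 the lower limit of the interval was 0 in both libraries. These include the 3 transcripts listed at 0 throughout, and most belong to *Tcf3* and *Tcf12*, which have several transcripts each. The deposited values give no interval for a sum per gene.

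The transcripts of *Tcf4* differed in their balance. NM_001083967 stood at 15.2 FPKM in the pre-pro-B library (interval 0.0493 to 37.5) against 51.2 in the pro-B library (interval 1.42 to 113). NM_013685 went from 20.1 FPKM (interval 0.334 to 45.2) to 24.6 (interval 0.0774 to 67.0). NM_001083967 thus held 43.1% of the *Tcf4* FPKM in the pre-pro-B and 67.5% in the pro-B library, and most of the difference in the *Tcf4* sum lay in this transcript, although its intervals overlapped.

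The 8 *Tcf3* transcripts are 3305 to 3320 bases long. The most abundant in both cells was NM_001164151, which stood at 18.4 FPKM in the pre-pro-B library (interval 0.287 to 45.1) against 38.4 in the pro-B library (interval 0.0340 to 99.6). NM_011548 had an FPKM of 7.88 and 30.4, and its share of the gene was 18.6% and 31.2%. Of the 8 transcripts 7 were higher in pro-B cells, and NM_001164147, with an FPKM of 2.64 and 2.02, was lower.

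Of the 5 *Tcf12* transcripts, NM_001253864 had an FPKM of 28.8 in the pre-pro-B and 36.4 in the pro-B library, and NM_011544 had 24.0 and 21.5. NM_001253862 had an FPKM of 1.35 and 1.69, and the other two, NM_001253863 and NM_001253865, were listed at 0 in both. The leading transcripts of this gene thus differed little, and in opposite directions.

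**Figure D4:**
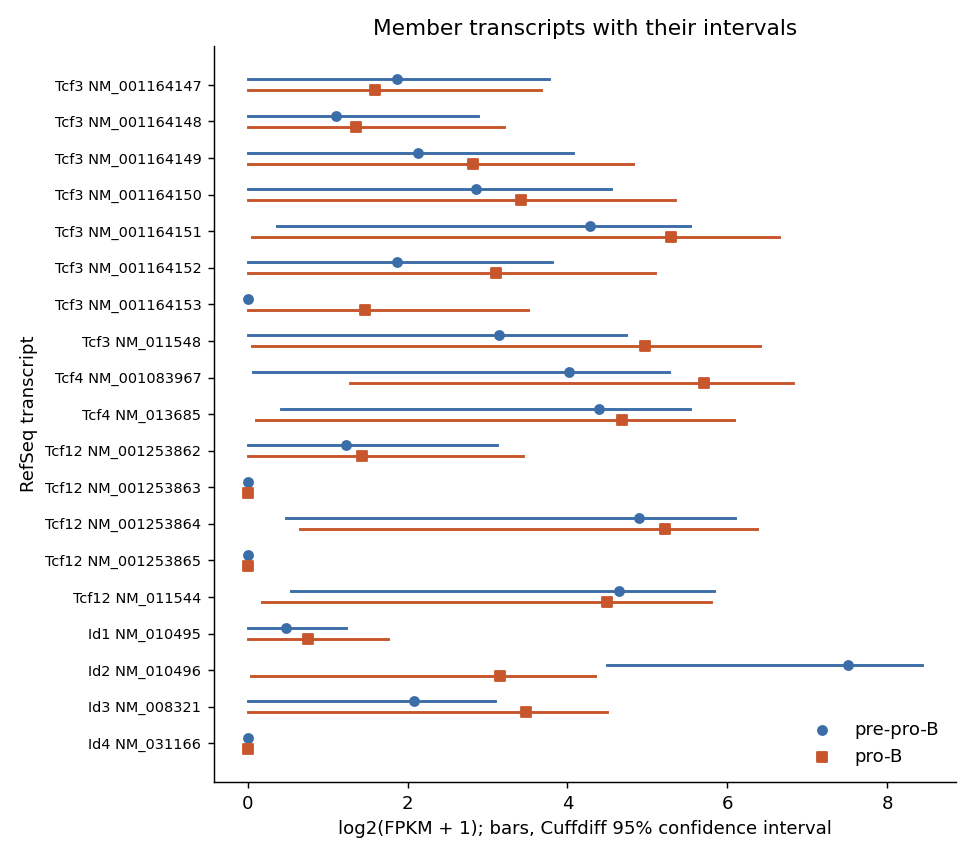
FPKM of each member transcript as log2(FPKM + 1), with the Cuffdiff 95% confidence interval as a bar, in the pre-pro-B library (circles) and the pro-B library (squares). The *Id2* bars are apart, and all other pairs of bars overlap, most of them down to 0.

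The genes nearest to each member were found by the distance of log2(FPKM + 1) over the 2 libraries, which is a description over 2 points. Nearest to *Id2* were *Iqgap2* (FPKM 165 in the pre-pro-B and 9.60 in the pro-B library) and *Bcl2* (172 and 10.4), at distances of 0.28 and 0.36. Nearest to *Tcf3* were *Idh3b* (41.7 and 93.6) and *Ctdspl2* (40.7 and 95.2). For *Tcf4* these were *Pigu* (36.2 and 76.3) and *Wdfy4* (34.8 and 79.3), for *Tcf12* *Kmt2e* (53.9 and 59.7) and *Psmb9* (53.8 and 59.5), and for *Id3* *Clcn6* (3.28 and 9.92). *Id2* had no neighbour as close as those of the other members.

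The genes around the family were counted in lists of proteins that work with it. For comparison, the median log2 change over the 10525 genes that reached 1 FPKM in either library was -0.14. Of these genes, 12.2% counted as higher and 19.1% as lower, so most lay within 2-fold. A list mostly within 2-fold is thus not set apart by that alone, and no list was tested against these shares. Counts below are of list members that reached 1 FPKM in either library. Each value pair gives the FPKM of the pre-pro-B and then of the pro-B library. A gene was counted by its fold alone, without regard to its intervals. These overlapped for some counted genes, such as *Usp1* (0.864 to 66.3 and 5.38 to 136). For others they were apart, such as *Pou2af1* (0 to 3.25 and 118 to 1597).

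Among the tissue-restricted partners of E proteins and the LIM complex that joins them, 4 of 5 genes were lower in pro-B cells, none was higher, and the median log2 change was -1.54. *Lyl1*, a dimerization partner known from blood progenitors, had 22.4 and 3.28. *Tal1*, its close relative, had 1.18 and 0.0501. The bridging protein genes *Lmo2* and *Lmo4* had 26.9 and 0.930, and 62.1 and 20.7. *Ldb1*, the scaffold of this complex, lay within 2-fold with 72.5 and 36.4. The other 6 of the 11 list members, among them *Tal2* and *Ascl2* at 0, stayed below an FPKM of 1 in both cells.

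Most cofactors through which E proteins act on chromatin lay within 2-fold: 11 of 13, with a median of -0.24. They include the acetyltransferase gene *Ep300* (26.8 and 19.8), the corepressor gene *Ncor1* (72.9 and 66.2) and the deacetylase genes *Hdac2* (70.8 and 62.8) and *Hdac3* (46.6 and 48.1). The lower ones were *Cbfa2t3*, a corepressor of the ETO family that E proteins bind, with 9.52 and 0.0691, and *Hdac1* with 11.2 and 1.53.

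Of the 15 genes for the turnover and phosphorylation of E and Id proteins, 12 lay within 2-fold and the median was 0.07. *Usp1*, a deubiquitinase known to stabilize Id proteins, was higher in pro-B cells with 32.4 and 70.0. *Cdc20*, which directs the anaphase-promoting complex to its substrates, was higher with 14.8 and 63.6. *Skp1*, a subunit of SCF ubiquitin ligases, was lower with 367 and 168. Those within 2-fold included the ubiquitin ligase genes *Cul1* (70.5 and 62.1), *Anapc1* (48.1 and 66.1) and *Huwe1* (54.9 and 38.3).

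Of 6 genes for repressors that bind E boxes or related sites, 2 were higher and 1 was lower in pro-B cells, with a median of 0.41. *Zeb2* had 34.7 and 108, *Bhlhe41* had 3.69 and 11.0, and *Snai3* had 1.36 and was listed at 0. *Zeb1* (14.5 and 14.7), *Hes1* (12.2 and 21.8) and *Bhlhe40* (9.14 and 8.94) lay within 2-fold.

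Id genes are known to be induced by BMP and TGF-beta signals and by Egr factors. Of 13 genes of these pathways, 3 were higher, 5 were lower and 5 lay within 2-fold, with a median of -0.50. The receptor genes were divided. *Bmpr1a* had 0.289 and 36.8, *Acvr2a* 0.869 and 5.27, and *Acvr1* was listed at 0 and then had 2.13, while *Bmpr2* had 15.9 and 0.713 and *Tgfbr1* 56.6 and 15.7. The signal transducer gene *Smad5* had 86.6 and 28.1 and the inhibitory *Smad7* 31.9 and 6.50. Within 2-fold lay the shared *Smad4* (41.6 and 29.2), *Smad2* (23.7 and 17.2), the receptor gene *Tgfbr2* (33.5 and 17.3) and *Egr1*, with 11.8 and 12.9.

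Genes of the B lineage that are known as E protein targets were mostly higher in pro-B cells: 19 of 25, with 1 lower, 5 within 2-fold and a median log2 change of 4.65. *Igll1*, *Vpreb1* and *Vpreb3*, for the surrogate light chain and a chaperone of immunoglobulin chains, had 1.17 and 798, 0.359 and 335, and 2.02 and 877. *Pou2af1*, a B cell coactivator, had 1.63 and 860. *Dntt*, the terminal transferase gene, was lower with 17.0 and 0.683. The highest levels within 2-fold were those of *Il7r* (349 and 424), *Rhoh* (31.3 and 63.2, just inside the limit with a log2 change of 0.99), *Bcl11a* (39.0 and 45.1) and *Bach2* (24.6 and 38.6). This list also holds targets of Ebf1, whose gene is disrupted in the pre-pro-B cells, so it does not separate the factors. Both disrupted genes are in the list as well. *Ebf1* is 1 of the 19 higher genes, and *Rag2*, disrupted in the pro-B cells, is 1 of the 5 within 2-fold.

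Targets known from lymphoid progenitors and T cells were mostly lower in pro-B cells: 9 of 13, with 1 higher, 3 within 2-fold and a median of -1.28. The list is not divided by whether E proteins activate or repress a target, so its direction is not read as their activity. *Notch1*, the receptor that directs T lineage choice, had 29.5 and 0.511. *Tcf7*, a T lineage and innate lymphoid factor, had 38.9 and 0.118. The chemokine receptor genes *Ccr9* and *Cxcr5* had 212 and 0.661, and 66.3 and 0.391, whereas *Cxcr4* was higher with 134 and 382. *Gfi1b* (16.2 and 8.78), *Hes1* (12.2 and 21.8) and *Cdkn1a* (8.56 and 14.2) lay within 2-fold.

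**Figure D5:**
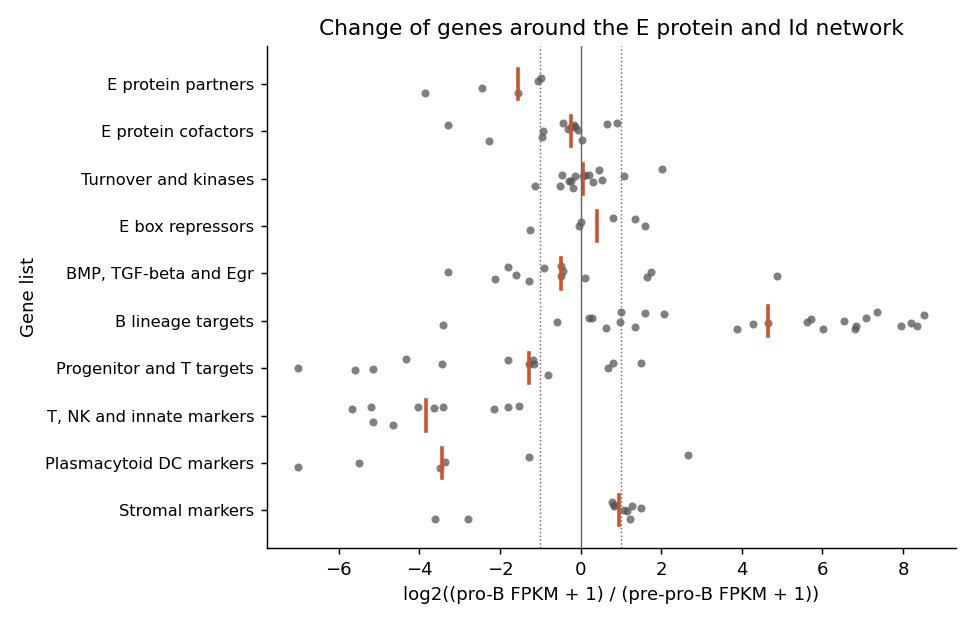
Each point is a gene that reached 1 FPKM in either library, at its log2 change between the cell types (pro-B over pre-pro-B, pseudocount 1), by gene list; orange bars mark the median of each list and dotted lines a 2-fold difference. The B lineage targets spread to the right with a median of 4.65, the T, NK and innate lymphoid markers all lie to the left, and the cofactors and turnover genes gather near 0.

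Markers of T, NK and innate lymphoid cells, of plasmacytoid dendritic cells and of myeloid cells were mostly lower in pro-B cells, as *Id2* was. With 2 libraries this direction is shared by all 2013 genes counted as lower, so it does not link these markers to *Id2*. Of 13 markers of T, NK and innate lymphoid cells, 10 reached 1 FPKM, and all 10 were past 2-fold lower in pro-B cells. The summed FPKM of the 13 was 222 and 4.04. Among them *Gzma* had 56.3 and 0.123, *Il2rb* 27.8 and 0.150, *Zbtb16* 15.9 and 0.0407 and *Cd3g* 36.8 and 0.0351, while *Cd3e* (0.239) and *Cd3d* (0.533) were below 1 in pre-pro-B cells as well. *Ncr1* and *Tbx21* were at 0 in pro-B cells. Of 7 measured plasmacytoid dendritic cell markers 6 reached 1 FPKM, of which 5 were lower in pro-B cells and 1, *Spib* (13.6 and 90.9), was higher, with sums of 396 and 121, and *Siglech* had 54.3 and 0.236. Of 10 myeloid markers 6 reached 1 FPKM and all 6 were lower in pro-B cells, with sums over the 10 of 283 and 9.51. *Fcgr3* (218 and 2.88) held most of the pre-pro-B sum, followed by *Mpo* (35.7 and 0.122) and *Itgam* (19.7 and 6.40). *Csf1r* and *Cd14* were below 1 in both cells, and *Elane* and *S100a9* were at 0 in both. Whether these RNAs and *Id2* were in the same cells, and the part of such cells in the *Id2* level, was not tested. In bulk samples, fewer cells of a type and less RNA per cell cannot be told apart.

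The labels were checked against their markers. All 8 pro-B markers were higher in pro-B cells, with sums of 70.8 and 2320. *Ebf1*, the gene disrupted in the pre-pro-B cells, is 1 of the 8 and held most of the pre-pro-B sum. Of 8 progenitor markers 5 were lower in pro-B cells, among them *Flt3* (303 and 0.916), *Kit* (107 and 0.377) and *Cd34* (534 and 1.52). The other 3 lay within 2-fold with the higher value in pro-B cells: *Il7r* (349 and 424), *Cd93* (267 and 420) and *Sox4* (43.2 and 53.4). *Ptprc*, counted among the 5 lower ones but a gene that white blood cells in general express, was listed at 269 and 0.917. A low FPKM is therefore not read as absence here. The targeted genes were each lower in their own null cells and neither was at 0: *Ebf1* had 64.0 in the pre-pro-B and 273 in the pro-B library, and *Rag2* had 34.5 and 22.9. An FPKM covers the whole transcript and does not show whether the deleted part was read. Stromal markers summed to 28.6 and 24.2, but they did not move together. Of 10 that reached 1 FPKM, 5 were higher in pro-B cells, namely *Fn1* (1.16 and 5.16), *Cxcl12* (0.618 and 2.92), *Col6a1* (1.17 and 4.05), *Col1a2* (0.707 and 2.82) and *Acta2* (0.608 and 2.39). *Pdgfrb* (15.9 and 0.377) and *Thy1* (5.95 and listed at 0) were lower and held most of the pre-pro-B sum, and *Dcn* and *Postn* were at 0 in both cells. The part of stromal RNA in the members' values was not tested. Erythroid, megakaryocyte and mast cell markers summed to 12.2 and 0.373, and *Cpa3* (10.5 and 0.0296) held most of the pre-pro-B sum. Only 2 of the 8 measured reached 1 FPKM. *Gata1*, *Klf1* and *Epor* were below 1 in both cells, and *Hba-a1*, *Pf4* and *Mcpt8* were at 0 in both. In the pre-pro-B library 10029 genes reached 1 FPKM, and in the pro-B library 9346 did.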

How the data were processed

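RNA-seq values of 1 *Ebf1* null pre-pro-B and 1 *Rag2* null pro-B library were used, with groups taken from the labels. The authors deposited FPKM for 30485 RefSeq transcripts, without scaling between libraries. Per the labels, about 90000000 single-end reads of 97 bases were made per library. The submitters' processing notes name TopHat 1.5 and Cuffdiff 2.1.1 on mm9; the study's methods add trimming, multi-read and bias correction. A further deposited table holds the authors' log2 fold changes, p-values and q-values, and repeats the FPKM in 2 per-sample columns; none of it was used.

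Of 26968 NM_ rows, 417 had no symbol in the RefSeq gene table (GRCm38.p6, used for names) and were left out of gene sums. FPKM were summed per gene, and changes are log2 with a pseudocount of 1, which understates changes of low genes. A gene was counted at 2-fold or more. With 1 library per group no test was made. Fragments were approximated from FPKM, transcript length and 90000000 reads, and floors of 3 fragments cover counting error only. As reads that did not align are included, the fragment counts are upper values and the floors are lower values. Coordinates are mm9, checked against GENCODE on the same build. Promoters came from the RefSeq promoter table, which held an entry for 5 of the 7 genes.

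Members, gene lists and the naming rule were chosen with earlier results of these data known. All members and their transcripts were named, with the 2 nearest genes of each expressed member, the targeted genes, and from each list up to 4 of the largest rises, 4 of the largest falls and 4 genes within 2-fold with the highest mean; of the marker lists, defining markers were named after their values were seen. Some genes that the rule would name are not reported here. Alternatives changed the pseudocount, the scaling, the filters and the choice of transcript. On simulated data the counts recovered 200 of 200 changed genes and called 0 of 20046 others. That run covers the counting steps only. The error of the 2-fold counts in the deposited values, with 1 library per group, was not tested. The tools were Biopython 1.88, matplotlib 3.10.9, scipy 1.17.1, pandas 2.3.3, numpy 2.4.6 and Python 3.11.15.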

Additional observations from a re-analysis of the deposited data

How the results depend on the processing

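Over the alternatives run, every member with a difference kept its direction, and the counts of members higher (3) and lower (1) did not move. The log2 change ranged from -4.55 to -4.28 for *Id2*, 1.02 to 1.27 for *Tcf3*, 1.00 to 1.31 for *Tcf4*, 0.04 to 0.33 for *Tcf12*, 1.40 to 1.65 for *Id3* and 0.27 to 0.78 for *Id1*. *Tcf4* was nearest to the limit of 2-fold, under TPM scaling. TPM scaling gave summed log2 changes of 0.73 (E proteins) and -3.37 (Id), and median-ratio scaling gave 0.91 and -3.15. These scalings shift a log2 ratio without a pseudocount by -0.09 and 0.09 by construction; with the pseudocount of 1 the shift differs between genes, and *Id1* and *Id3* came out higher under TPM scaling (0.41 and 1.46). With the most abundant transcript of each gene the E protein sum changed by 0.89, and the ratio of Id to E protein FPKM was 2.76 in pre-pro-B and 0.149 in pro-B cells. Over all genes, a pseudocount of 0.1 counted 2094 higher and 3117 lower, and no pseudocount, with genes above 0 in both, counted 2073 higher and 2662 lower. No paired analysis was possible because each group has 1 library. Depth limits *Id1* and *Id4*. The model intervals, wide for transcripts that share sequence, limit the balance between transcripts of *Tcf3*, *Tcf4* and *Tcf12*.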
